A study of Mus musculus with 12 samples.

Results

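The genes described here are the ATP-binding cassette (ABC) genes: the 40 rows of the deposited table, out of 28999 genes, whose names run from Abca to Abcg and carry a number, without pseudogenes. Of these, 34 passed the filter on low counts and were tested, and 10 form the drug efflux set (Abcb1a, Abcb1b, Abcg2 and every Abcc gene), of which 9 were tested. RNA was sequenced from marrow cells labelled as long-term haematopoietic stem cells, or LT-HSCs, which keep up blood formation, in 4 groups of 3 libraries. Wild-type mice and mice labelled Trim47-/- were either untreated or given 5-fluorouracil (5-FU), which blocks thymidylate synthesis and is toxic to dividing cells. The title of the series names 10 days. Trim47 belongs to the tripartite motif family of proteins. For the 5-FU dose and schedule, the age and strain of the mice, the gate for LT-HSCs and the deleted stretch of Trim47, the sources used here give no entry. Nothing in the labels says that the 3 libraries of a group came from separate mice, so each p-value measures the spread between these libraries only, which may be technical.

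ABC proteins bind and split ATP through a pair of conserved nucleotide-binding domains, and most of them use that energy to move a substrate across a membrane. P-glycoprotein, encoded in the mouse by Abcb1a and Abcb1b, and the breast cancer resistance protein, encoded by Abcg2, pump a wide range of drugs and dyes out of cells. Blood stem cells are known for this activity: Abcg2 is the main pump behind the Hoechst dye exclusion that marks the side population of the marrow. Other members carry cholesterol and phospholipids (Abca and most Abcg genes), serve mitochondria or lysosomes (several Abcb genes), or carry fatty acids into peroxisomes (most Abcd genes). The Abce and Abcf proteins have no membrane part and act on ribosomes.

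Promoter windows are shown for 2 sets of genes whose changes are described further on: the chromosome 5 neighbours Abcb1a, Abcb1b and Abcb4, which were all lower after 5-FU in libraries labelled Trim47-/-, and the ribosome-acting genes Abce1 and Abcf1, which were higher there. Each window is the 250 bases before the start of transcription in RefSeq (GRCm38.p6), 5′ to 3′ on the strand of the gene, and capitals mark matches to 7 short motifs searched on both strands (the CCAAT box, the GC box GGGCGG, the TATA box TATAAA, the E-box CACGTG, the AP-1 element TGANTCA, the ETS element CCGGAAG and the cyclic AMP response element TGACGTCA).
Abcb1a, chr5:8566841-8567090, plus strand: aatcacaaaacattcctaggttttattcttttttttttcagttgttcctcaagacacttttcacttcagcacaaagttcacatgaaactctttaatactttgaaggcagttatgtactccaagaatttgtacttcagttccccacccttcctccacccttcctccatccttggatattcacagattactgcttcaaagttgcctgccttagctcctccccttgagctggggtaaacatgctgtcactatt
Abcb1b, chr5:8797897-8798146, plus strand: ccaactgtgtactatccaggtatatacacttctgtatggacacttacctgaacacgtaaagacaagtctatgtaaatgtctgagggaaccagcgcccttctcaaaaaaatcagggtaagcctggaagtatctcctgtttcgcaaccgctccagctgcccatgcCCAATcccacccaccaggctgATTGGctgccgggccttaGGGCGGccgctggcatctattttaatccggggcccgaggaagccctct
Abcb4, chr5:8893471-8893720, plus strand: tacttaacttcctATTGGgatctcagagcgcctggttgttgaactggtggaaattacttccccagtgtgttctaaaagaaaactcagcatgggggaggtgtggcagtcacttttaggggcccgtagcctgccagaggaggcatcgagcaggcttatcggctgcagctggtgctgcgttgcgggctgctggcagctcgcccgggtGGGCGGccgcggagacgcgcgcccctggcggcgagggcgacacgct
Abce1, chr8:79711741-79711990, minus strand: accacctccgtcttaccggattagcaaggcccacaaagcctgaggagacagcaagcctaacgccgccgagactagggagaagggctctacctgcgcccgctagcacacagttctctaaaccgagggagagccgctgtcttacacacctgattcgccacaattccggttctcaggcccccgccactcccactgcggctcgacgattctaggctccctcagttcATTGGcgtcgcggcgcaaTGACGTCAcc
Abcf1, chr17:35969751-35970000, minus strand: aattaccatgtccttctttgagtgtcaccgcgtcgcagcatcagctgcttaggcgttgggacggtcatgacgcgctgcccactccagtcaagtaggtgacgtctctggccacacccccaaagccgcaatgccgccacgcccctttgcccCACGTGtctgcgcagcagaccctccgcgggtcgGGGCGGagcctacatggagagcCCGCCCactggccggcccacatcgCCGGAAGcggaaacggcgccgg
None of the marked matches overlapped another.

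The window of Abcb1a held no match and was 40.4% G or C. Its RefSeq start lies far upstream of the locus in the deposited table. The window ends at 8567090 on chromosome 5 and the locus begins at 8660077, so this window does not adjoin the locus that was counted. Abcb1b carried CCAAT at 87 and 66 bases and GGGCGG at 48 bases before its start, and Abcb4 carried CCAAT at 237 and GGGCGG at 46. In Abce1, CCAAT stood 28 bases and TGACGTCA 10 bases before the start. Abcf1 held CACGTG at 101, GGGCGG at 68 and 46 and CCGGAAG at 22. Of the 34 tested members, 25 had at least 1 window in RefSeq, and some had several starts. Counting every window of a gene, 15 of the 25 held GGGCGG, against 35.4% of 27025 genes with a window of this length. CCAAT was in 8 of the 25, against 37.5% of genes, and TGACGTCA was in 2, Abce1 and Abcg2, against 1.8%. The sets are unlike: the 25 members had passed the filter on low counts, while the 27025 genes were taken whether or not they had.

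Total counts were 14828152 to 14885673 per library in untreated wild type, 20661120 to 20703198 in untreated Trim47-/-, 15111811 to 15151589 in wild type after 5-FU and 13919649 to 13953510 in Trim47-/- after 5-FU. ABC genes took 0.2036 to 0.2316% of them. Trim47 itself, given in CPM (counts scaled to a fixed library size after TMM adjustment), stood at 24.6, 23.8 and 24.7 in untreated wild type and 23.7, 18.9 and 16.6 in untreated Trim47-/-, a log2 change of -0.31 (SE 0.115, adjusted p = 0.0632). After 5-FU it was at 38.1, 33.3 and 34.7 in wild type and 10.1, 12.2 and 11.6 in Trim47-/- (log2 change -1.64, SE 0.121, adjusted p = 5.5e-07). The untreated libraries labelled Trim47-/- thus still carried Trim47 reads, at a level not called lower, and Trim47-/- stands throughout for the libraries so labelled. LT-HSC markers such as Hlf, Procr and Slamf1 were present in every group, alongside transcripts of other blood cells. The summed CPM of 12 neutrophil markers was 3321 to 3459, 3258 to 3313, 4114 to 4190 and 6599 to 6979 in untreated wild type, untreated Trim47-/-, treated wild type and treated Trim47-/-. In the same order, the 12 LT-HSC markers summed to 1157 to 1260, 1307 to 1421, 1149 to 1304 and 695 to 772, the 12 monocyte and macrophage markers to 483 to 500.2, 311 to 333, 399.5 to 407 and 795 to 831, and the 12 erythroid markers to 309.5 to 322, 352 to 359, 718 to 724 and 693 to 707. Every gene of these 4 lists had reads in each group, while Ms4a1, Ncr1, Xcr1 and Cd209a, markers of B, NK and dendritic cells, had none in treated Trim47-/-, and Cd209a had none in treated wild type either. Between untreated genotypes, 7 of 12 neutrophil markers were called higher in Trim47-/- and 3 lower, although their sum was lower there. Of 12 LT-HSC markers, 5 were higher and 0 lower, and of 10 tested monocyte and macrophage markers, 0 were higher and 5 lower. Of all tested genes, 17.6% were higher and 15.4% lower in that comparison. Between treated genotypes, 27.2% of all tested genes were higher in Trim47-/- and 27.6% lower. There, 11 of 12 LT-HSC markers were lower and none higher, and all 12 neutrophil markers were higher. Of 10 tested monocyte and macrophage markers, 8 were higher and none lower. The part of these shifts in the ABC values was not tested. In such bulk samples, fewer cells of a type and less RNA per cell cannot be told apart.

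Levels between genes were compared per length, as the deposited FPKM (fragments scaled by gene length and library total). The length used for each gene was not checked against its annotated exons, so the order of genes with close values may depend on it. Averaged over the 12 libraries, Abcf2 (37.8), Abca7 (37.8) and Abca2 (36) had the highest FPKM of the family, and the order among them differed by group. Abca2 was first in both untreated groups, at a mean of 38.5 in wild type and 38.05 in Trim47-/-, Abca7 in treated wild type (44.05) and Abcf2 in treated Trim47-/- (47.5). Next over the 12 libraries came Abce1 (28.6) and Abcf1 (28.3). Among the drug efflux genes, Abcc1 (8.48 FPKM) and Abcc4 (8.24) had the highest means. By FPKM, Abcc1 was above Abcc4 in untreated mice (9.54 against 7.22 in wild type, 9.14 against 7.08 in Trim47-/-) and below it after 5-FU (7.84 against 9.09 and 7.42 against 9.58). This crossing rests on the gene lengths in the FPKM. By mean CPM, which is not scaled by length, Abcc1 was above Abcc4 in all 4 groups. The means were 177 against 57.6 in untreated wild type and 135 against 75.1 in treated Trim47-/-. By FPKM the pair was followed by Abcb1b (5.51), Abcg2 (3.2) and Abcc5 (3.06). Abcb1a, the other P-glycoprotein gene, had 0.578 FPKM, and Abcc3 and Abcc2 had 0.681 and 0.1198. The 6 members that failed the filter were Abca17, Abca6, Abca8a, Abca8b, Abcc9 and Abcg5, with 33, 38, 3, 5, 54 and 2 reads summed over all 12 libraries. Abcc9, a regulatory subunit of potassium channels, was the drug efflux member that could not be tested.

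**Figure D1:**
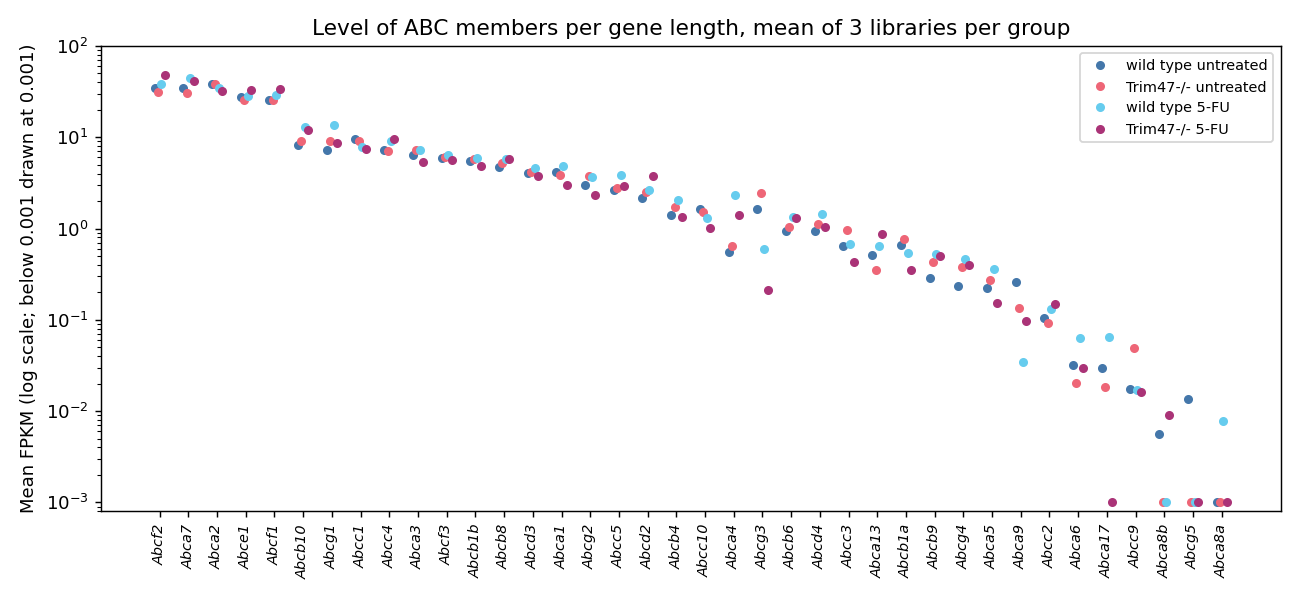
Mean FPKM of the members (vertical axis, log scale) in each of the 4 groups, 1 point per group mean of 3 libraries, ordered by level. Abcf2, Abca7 and Abca2 stand highest and the 6 members that failed the filter stand at the right end, with values under 0.001 drawn at 0.001.

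In untreated mice, 7 of 34 members were higher and 6 lower in libraries labelled Trim47-/-, so 38.2% of members were called, where 33% of all 16319 tested genes were (17.6% higher and 15.4% lower). After 5-FU the same genotype comparison gave 7 higher and 16 lower, 67.6% of members against 54.7% of all genes (27.2% higher and 27.6% lower). The median log2 change was 0.08 untreated and -0.10 after 5-FU, with 0.03 and 0 over all tested genes. The drug in wild type raised 16 members and lowered 6 (64.7%, against 50.6% of all genes, 25.2% higher and 25.4% lower). In Trim47-/- it raised 12 and lowered 14 (76.5%, against 60.5%, 29.6% higher and 30.8% lower). The interaction, the drug response in Trim47-/- minus that in wild type, was above 0 in 8 members and below 0 in 17 (73.5%, against 54.9%, 26.4% above and 28.5% below). Most changes were small: 0, 3, 3 and 5 members reached a called change of at least 2-fold in the 4 pairwise comparisons, with 3.75%, 8.79%, 9.92% and 13.4% of all genes. Without replicate 1 of untreated wild type, 4 members were called higher in untreated Trim47-/-, and without replicate 3 of that group 3 were called lower. The comparisons share groups of libraries, so their counts are not independent of each other.

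Called genotype differences among the drug efflux genes are set here beside those of all tested genes, of which 33% were called in untreated mice and 54.7% after 5-FU. In untreated mice 2 of 9 were higher in Trim47-/- and none lower, after 5-FU 1 was higher and 6 lower, and the interaction was called in 6 of 9. Among the other 25 members, 5 were higher and 6 lower untreated, and 6 higher and 10 lower after 5-FU. The share with a called interaction was 66.7% for drug efflux genes and 76.0% for the others, against 54.9% of all genes tested. In wild type the drug raised 3 of 9 efflux genes and lowered 3, and of the other 25 it raised 13 and lowered 3. In Trim47-/- it raised 2 of 9 efflux genes and lowered 6, and of the other 25 it raised 10 and lowered 8. Of all genes, 25.2% rose and 25.4% fell in wild type, and 29.6% rose and 30.8% fell in Trim47-/-.

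Abcg2 (chr6:58584523-58695676, GRCm38), the dye and drug pump, was highest in untreated Trim47-/- and lowest in Trim47-/- after 5-FU. Its CPM were 31.7, 33.7 and 34.9 in untreated wild type, 40.9, 39.5 and 42.6 in untreated Trim47-/-, 35.5, 39.4 and 38.5 in wild type after 5-FU and 24.99, 25.4 and 25.02 in Trim47-/- after 5-FU. All 3 treated Trim47-/- libraries lay below every other library, and the untreated Trim47-/- libraries lay above all others. Between genotypes the log2 change was 0.29 (SE 0.053, adjusted p = 0.00145) untreated and -0.59 (SE 0.055, adjusted p = 3.56e-06) after 5-FU. The drug response was -0.71 (SE 0.054, adjusted p = 5.14e-07) in Trim47-/- and 0.18 (SE 0.054, adjusted p = 0.0172) in wild type, and the difference of the responses was -0.88 (SE 0.076, adjusted p = 2e-06). The wild-type rise was no longer called without replicate 1 of untreated wild type, or replicate 2 or 3 of treated wild type (adjusted p = 0.0574 to 0.0756). In the treated Trim47-/- libraries the summed LT-HSC markers were also the lowest of the 4 groups, at 695 to 772 CPM against 1149 to 1304 in treated wild type.

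The P-glycoprotein genes Abcb1a (chr5:8660077-8748575) and Abcb1b (chr5:8798147-8866315) both fell with 5-FU in Trim47-/-. Abcb1a stood at 4.703, 4.78 and 4.77 CPM in untreated wild type and 5.93, 5.16 and 5.28 in untreated Trim47-/-. After 5-FU it was at 4.04, 3.795 and 2.91 in wild type and 2.38, 2.46 and 2.54 in Trim47-/-. These 4 ranges did not overlap, and the drug change was -0.41 (SE 0.12, adjusted p = 0.0153) in wild type and -1.15 (SE 0.12, adjusted p = 8.65e-06) in Trim47-/-. Between genotypes Abcb1a differed by -0.54 (SE 0.13, adjusted p = 0.00609) after 5-FU and by 0.20 (SE 0.11, adjusted p = 0.224) without the drug, and the interaction was -0.74 (SE 0.17, adjusted p = 0.00348). Its wild-type drug change was lost without replicate 3 of treated wild type (adjusted p = 0.15), and its genotype change after 5-FU without replicate 1 of treated wild type (adjusted p = 0.0525).

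For Abcb1b the CPM were 55.7, 56.5 and 56.4 in untreated wild type, 61.9, 56.6 and 57.5 in untreated Trim47-/-, 58.1, 53.4 and 54.98 in wild type after 5-FU and 49.2, 47.3 and 47.5 in Trim47-/- after 5-FU. The first 3 groups lay between 53.4 and 61.9 and the last lay below them. The genotype change after 5-FU was -0.21 (SE 0.044, adjusted p = 0.00173) and the drug change in Trim47-/- was -0.29 (SE 0.044, adjusted p = 1.34e-04). In wild type the drug change was -0.02 (SE 0.044, adjusted p = 0.758), and the interaction was -0.27 (SE 0.062, adjusted p = 0.00298). Of all 50-base stretches of Abcb1a transcripts, 16.3% also occur in Abcb1b, and 11.1% of those of Abcb1b occur in Abcb1a, so reads may have been split between the pair and their separate values are uncertain. Each also overlaps an annotated transcript on the opposite strand (Gm42686 and Gm5106).

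**Figure D2:**
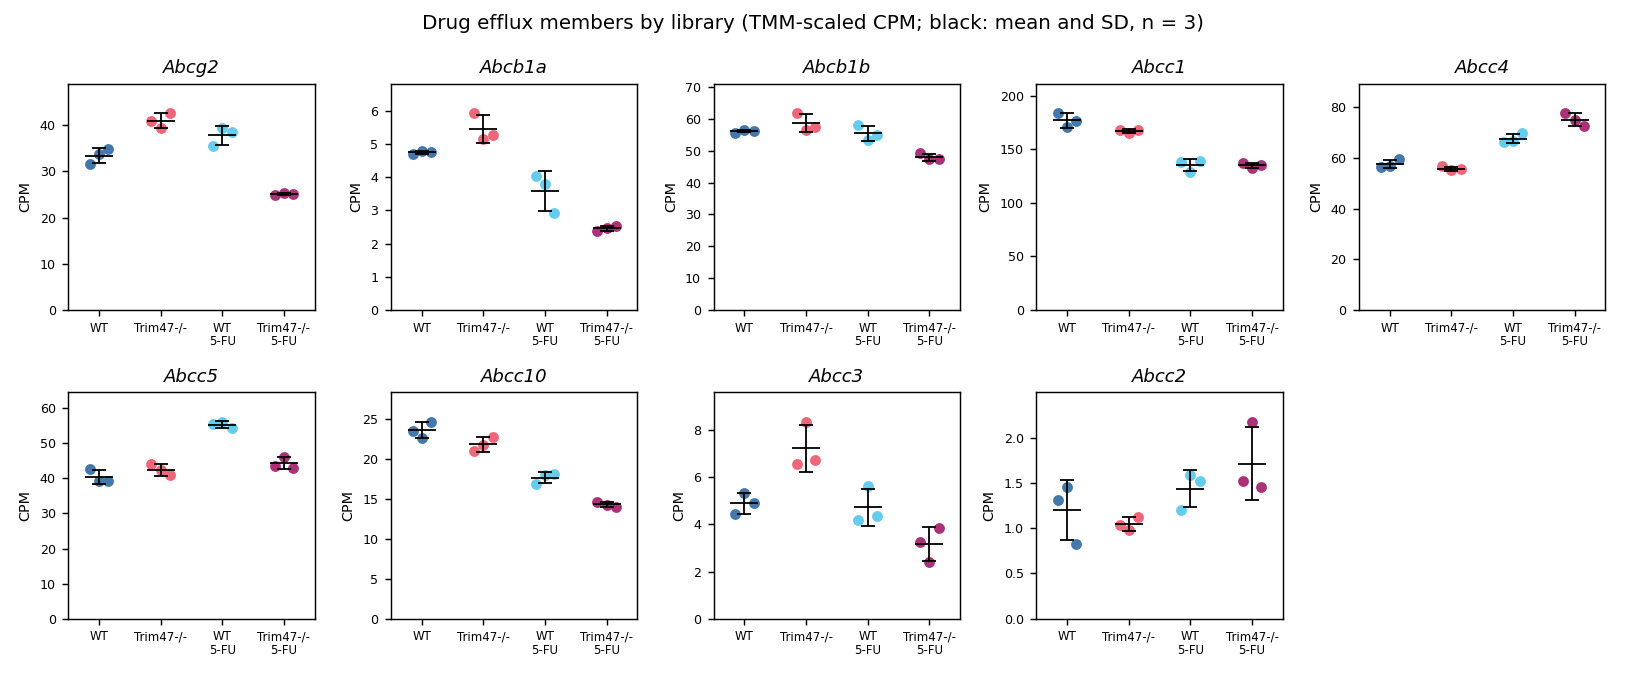
CPM on TMM-scaled library sizes (vertical axes from 0) of the 9 tested drug efflux genes, with 1 point per library and the mean and SD of 3 libraries in black for each of the 4 groups. In Abcg2, Abcb1a, Abcb1b, Abcc10 and Abcc3 the treated Trim47-/- libraries lie below all others. Abcc5 is highest in treated wild type and Abcc4 in treated Trim47-/-.

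The Abcc genes encode the multidrug resistance proteins, which export conjugates with glutathione or glucuronate and, for Abcc4 and Abcc5, nucleotides and nucleotide analogues. Their directions differed from gene to gene. Abcc5 was raised by 5-FU in wild type. Its CPM were 42.7, 39.2 and 39.3 in untreated wild type, 44.2, 42.3 and 40.9 in untreated Trim47-/-, 55.5, 56.1 and 54.3 in wild type after 5-FU and 43.5, 46.2 and 43.1 in Trim47-/- after 5-FU. The treated wild-type libraries stood above all 9 others. The drug change was 0.45 (SE 0.048, adjusted p = 1.09e-05) in wild type and 0.06 (SE 0.047, adjusted p = 0.297) in Trim47-/-, and the responses differed by -0.39 (SE 0.067, adjusted p = 4.12e-04). Abcc4 had 56.6, 56.9 and 59.4 CPM in untreated wild type, 56.6, 55.2 and 55.4 in untreated Trim47-/-, 66.3, 66.7 and 69.7 in treated wild type and 77.6, 74.9 and 72.7 in treated Trim47-/-. Unlike Abcc5 it was highest in treated Trim47-/-, with a drug change of 0.43 (SE 0.036, adjusted p = 1.1e-06) there and 0.23 (SE 0.036, adjusted p = 2.64e-04) in wild type, and an interaction of 0.20 (SE 0.051, adjusted p = 0.00622).

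Abcc1, the exporter of leukotriene C4 and glutathione conjugates, and Abcc10 were both lowered by the drug in both genotypes. Abcc1 fell from 184, 171 and 177 CPM to 138, 129 and 139 in wild type and from 168, 165 and 168 to 137, 133 and 135 in Trim47-/-. The treated libraries of both genotypes lay together below all untreated ones, and the genotype difference after 5-FU was -0.0028 (SE 0.035, adjusted p = 0.956). Its drug changes were -0.39 (SE 0.035, adjusted p = 2.92e-06) and -0.31 (SE 0.035, adjusted p = 1.26e-05), and the interaction was 0.08 (SE 0.049, adjusted p = 0.193). Abcc10 went from 23.4, 22.6 and 24.6 to 16.8, 17.9 and 18.1 CPM in wild type and from 20.98, 21.7 and 22.8 to 14.6, 14.3 and 13.996 in Trim47-/-. The treated genotypes did not overlap, with a difference of -0.30 (SE 0.058, adjusted p = 0.00102). Abcc10 overlaps the gene Dlk2 on the opposite strand by 51 exonic bases.

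Abcc3 and Abcc2 were present at low levels. Abcc3, an exporter of bile salts and glucuronides, had 4.43, 5.34 and 4.91 CPM in untreated wild type, 6.57, 8.35 and 6.74 in untreated Trim47-/-, 4.17, 5.63 and 4.37 in wild type after 5-FU and 3.25, 2.39 and 3.84 in Trim47-/- after 5-FU. It was the highest in untreated and the lowest in treated Trim47-/-, without overlap. Genotype changes were 0.56 (SE 0.16, adjusted p = 0.0207) untreated and -0.58 (SE 0.19, adjusted p = 0.0204) after 5-FU, and the interaction was -1.14 (SE 0.25, adjusted p = 0.00215). The untreated change was lost without replicate 1 or 3 of untreated wild type, or replicate 2 of untreated Trim47-/- (adjusted p = 0.0541 to 0.0766), and the change after 5-FU without replicate 2 of treated wild type, or replicate 2 of treated Trim47-/- (adjusted p = 0.083 to 0.0863). Abcc2 had 1.31, 1.46 and 0.829 CPM in untreated wild type, 1.03, 0.982 and 1.12 in untreated Trim47-/-, 1.2, 1.58 and 1.52 in treated wild type and 1.52, 2.17 and 1.45 in treated Trim47-/-. Only its drug change in Trim47-/- was called, at 0.71 (SE 0.23, adjusted p = 0.0176), and it was lost without replicate 2 of untreated Trim47-/-, or replicate 2 of treated Trim47-/- (adjusted p = 0.0516 to 0.13).

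Abcb4 and the Abcg genes other than Abcg2 gave 4 tested members. All 4 were higher in untreated Trim47-/- (of all genes tested, 17.6% were), 3 were lower in treated Trim47-/- (27.6% of all genes), and all 4 had a called interaction below 0 (28.5% of all genes). Their drug responses in wild type differed: Abcg3 fell, by 1.54 on the log2 scale, and the other 3 rose. Abcg1 (chr17:31057675-31117988), which passes cholesterol to high-density lipoprotein, had 62.4, 61.5 and 63.4 CPM in untreated wild type, 79.2, 76.01 and 74.5 in untreated Trim47-/-, 108, 112 and 108 in wild type after 5-FU and 73.5, 73.5 and 71.8 in Trim47-/- after 5-FU. The treated wild-type libraries stood above the other 9. The drug change was 0.81 (SE 0.032, adjusted p = 2.91e-09) in wild type and -0.07 (SE 0.032, adjusted p = 0.0753) in Trim47-/-, a difference of -0.88 (SE 0.045, adjusted p = 2.69e-08). The drug change in Trim47-/- was called without replicate 3 of untreated Trim47-/- (adjusted p = 0.0477). Genotype changes were 0.29 (SE 0.032, adjusted p = 3.65e-05) untreated and -0.58 (SE 0.032, adjusted p = 4.61e-08) after 5-FU.

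Abcb4 (chr5:8893717-8959231), which moves phosphatidylcholine to the outer membrane leaflet and lies 27.4 kb beyond Abcb1b, had 15.4, 14.97 and 14.9 CPM in untreated wild type, 18.5, 18.1 and 17.9 in untreated Trim47-/-, 19.8, 21.5 and 19.9 in treated wild type and 14.1, 14.1 and 13.9 in treated Trim47-/-. No 2 of these groups overlapped. It rose with the drug in wild type by 0.44 (SE 0.052, adjusted p = 3.05e-05) and fell in Trim47-/- by 0.37 (SE 0.052, adjusted p = 7.5e-05), with an interaction of -0.81 (SE 0.074, adjusted p = 3.02e-06). Abcg3, a relative of Abcg2 found in rodents, showed the largest called drop of any member, seen with 5-FU in Trim47-/-. Its libraries spanned 5.19 to 8.11 CPM in untreated wild type, 9.09 to 10.1 in untreated Trim47-/-, 1.898 to 2.91 in treated wild type and 0.795 to 0.943 in treated Trim47-/-, and no groups overlapped. The drug change was -3.52 (SE 0.21, adjusted p = 7.08e-08) in Trim47-/- and -1.54 (SE 0.18, adjusted p = 3.23e-05) in wild type. The change in Trim47-/- rests on 35 reads summed over the treated libraries of that genotype. The higher level of Abcg3 in untreated Trim47-/-, 0.55 (adjusted p = 0.017), was lost without replicate 1 of untreated wild type (adjusted p = 0.0651). Abcg4, also a cholesterol carrier, was at 1.46 to 2.14 CPM in untreated wild type, 2.504 to 3.57 in untreated Trim47-/-, 2.91 to 4.18 in treated wild type and 2.89 to 3.404 in treated Trim47-/-. Its untreated genotype change, 0.69 (adjusted p = 0.0247), was lost without replicate 1 or 2 of untreated wild type, or replicate 3 of untreated Trim47-/- (adjusted p = 0.0588 to 0.0978), and its interaction, -0.81 (adjusted p = 0.0311), without replicate 1 or 2 of untreated wild type, replicate 3 of untreated Trim47-/-, replicate 3 of treated wild type, or replicate 1 or 3 of treated Trim47-/- (adjusted p = 0.0538 to 0.0809).

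The Abca genes did not move as a block: of 8 tested, 2 were higher and 4 lower in treated Trim47-/-, against 27.2% and 27.6% of all genes. Abca1 (chr4:53030787-53159895), which loads cholesterol onto apolipoprotein A-I, had 43.7, 45.9 and 46.7 CPM in untreated wild type, 40.5, 40.9 and 41.6 in untreated Trim47-/-, 47.2, 48.3 and 51.8 in wild type after 5-FU and 31.4, 33.6 and 30.02 in Trim47-/- after 5-FU. Both Trim47-/- groups lay below their wild-type counterparts. After 5-FU the genotype change was -0.63 (SE 0.052, adjusted p = 1.31e-06), and the interaction was -0.49 (SE 0.073, adjusted p = 1.59e-04). The untreated change, -0.15 (SE 0.051, adjusted p = 0.0445), was lost without replicate 2 or 3 of untreated wild type, or any 1 replicate of untreated Trim47-/- (adjusted p = 0.081 to 0.141). Abca3, known as the surfactant lipid carrier of the lung, had 75.8, 77.1 and 82.6 CPM in untreated wild type, 88.7, 85.9 and 87.5 in untreated Trim47-/-, 85.1, 81.8 and 83.7 in treated wild type and 59.9, 70.04 and 63.96 in treated Trim47-/-. The last group lay below the others without overlap. Its genotype change was -0.37 (SE 0.053, adjusted p = 1.08e-04) after 5-FU. The untreated rise, 0.15 (adjusted p = 0.0395), was lost without replicate 1 or 2 of untreated wild type, or any 1 replicate of untreated Trim47-/- (adjusted p = 0.0586 to 0.126). A transcript on the opposite strand, D330041H03Rik, overlaps its exons.

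The abundant members Abca2, an endolysosomal protein, and Abca7, a phospholipid carrier, answered the drug in opposite directions. Abca2 was at 398, 405 and 388 CPM in untreated wild type and 386, 387 and 388 in untreated Trim47-/-, and after 5-FU at 336, 331 and 339 in wild type and 324, 332 and 330.1 in Trim47-/-. The treated genotypes overlapped, and the drug changes were -0.24 (SE 0.02, adjusted p = 1.25e-06) in wild type and -0.23 (SE 0.02, adjusted p = 1.05e-06) in Trim47-/-. Abca7 was at 264, 269.9 and 269 in untreated wild type and 232, 238 and 233 in untreated Trim47-/-, then after 5-FU at 314, 318 and 319.7 in wild type and 314, 319 and 316 in Trim47-/-. It was lower in Trim47-/- without the drug (-0.19, SE 0.019, adjusted p = 1.68e-05) and the groups overlapped after it (-0.01, SE 0.019, adjusted p = 0.838). Its drug changes were 0.25 (SE 0.019, adjusted p = 7.41e-07) and 0.43 (SE 0.019, adjusted p = 4.48e-09).

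Abca4, the retinoid carrier of photoreceptors, made the largest called rise with 5-FU in wild type. Its CPM went from 8.23, 8.38 and 7.81 to 33.3, 30.99 and 30.4 in wild type (1.95, SE 0.089, adjusted p = 9.59e-09) and from 9.71, 8.84 and 9.58 to 17.7, 20.1 and 22.6 in Trim47-/- (1.10, SE 0.087, adjusted p = 6.45e-07). The treated groups did not overlap, and the interaction was -0.85 (SE 0.12, adjusted p = 1.23e-04). In the same libraries the erythroid markers summed to 718 to 724 CPM in treated wild type and 693 to 707 in treated Trim47-/-, against 309.5 to 322 and 352 to 359 untreated. Abca13 showed the opposite order of genotypes, at 10.3, 11.1 and 10.3 in untreated wild type, 7.502, 7.12 and 6.74 in untreated Trim47-/-, 13.1, 11.4 and 12.3 in treated wild type and 17.7, 17.2 and 18.1 in treated Trim47-/-. No groups overlapped: it was lower in Trim47-/- without the drug (-0.57, SE 0.074, adjusted p = 1.54e-04) and higher with it (0.52, SE 0.071, adjusted p = 7.38e-05), with an interaction of 1.09 (SE 0.1, adjusted p = 3.93e-06). Its small wild-type drug rise, 0.22 (adjusted p = 0.0323), was lost without replicate 1 or 3 of untreated wild type, or replicate 1 or 3 of treated wild type (adjusted p = 0.0613 to 0.157). Both the neutrophil and the monocyte and macrophage marker sums were highest in the same group as Abca13, treated Trim47-/-, at 6599 to 6979 and 795 to 831 CPM. In untreated wild type and Trim47-/- the neutrophil sums were 3321 to 3459 and 3258 to 3313. The monocyte and macrophage sums there were 483 to 500.2 and 311 to 333. Any link of these sums to Abca13 was not tested.

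The low members Abca5 and Abca9 went opposite ways in treated Trim47-/-. Abca5 was at 4.17 to 5.63 CPM in treated wild type and 1.89 to 2.39 in treated Trim47-/- (log2 change -1.15, adjusted p = 9.63e-05). Abca9 spanned 1.59 to 2.76 CPM in untreated and 0.127 to 0.3796 in treated wild type, a fall with log2 change -2.99 (adjusted p = 2.74e-05) that rests on 2 to 6 reads per treated library. In Trim47-/- it spanned 0.932 to 1.27 untreated and 0.653 to 1.09 treated. The treated Trim47-/- libraries were above the treated wild-type ones (1.56, adjusted p = 0.00949). The lower untreated level of Abca9 in Trim47-/-, -0.96 (adjusted p = 0.0129), was lost without replicate 3 of untreated wild type, or replicate 1 of untreated Trim47-/- (adjusted p = 0.0517 to 0.0661). Both genes lie in a cluster on chromosome 11, 5.77 to 6.11 Mb from Trim47, with Abca6, Abca8a and Abca8b, none of which passed the filter.

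**Figure D3:**
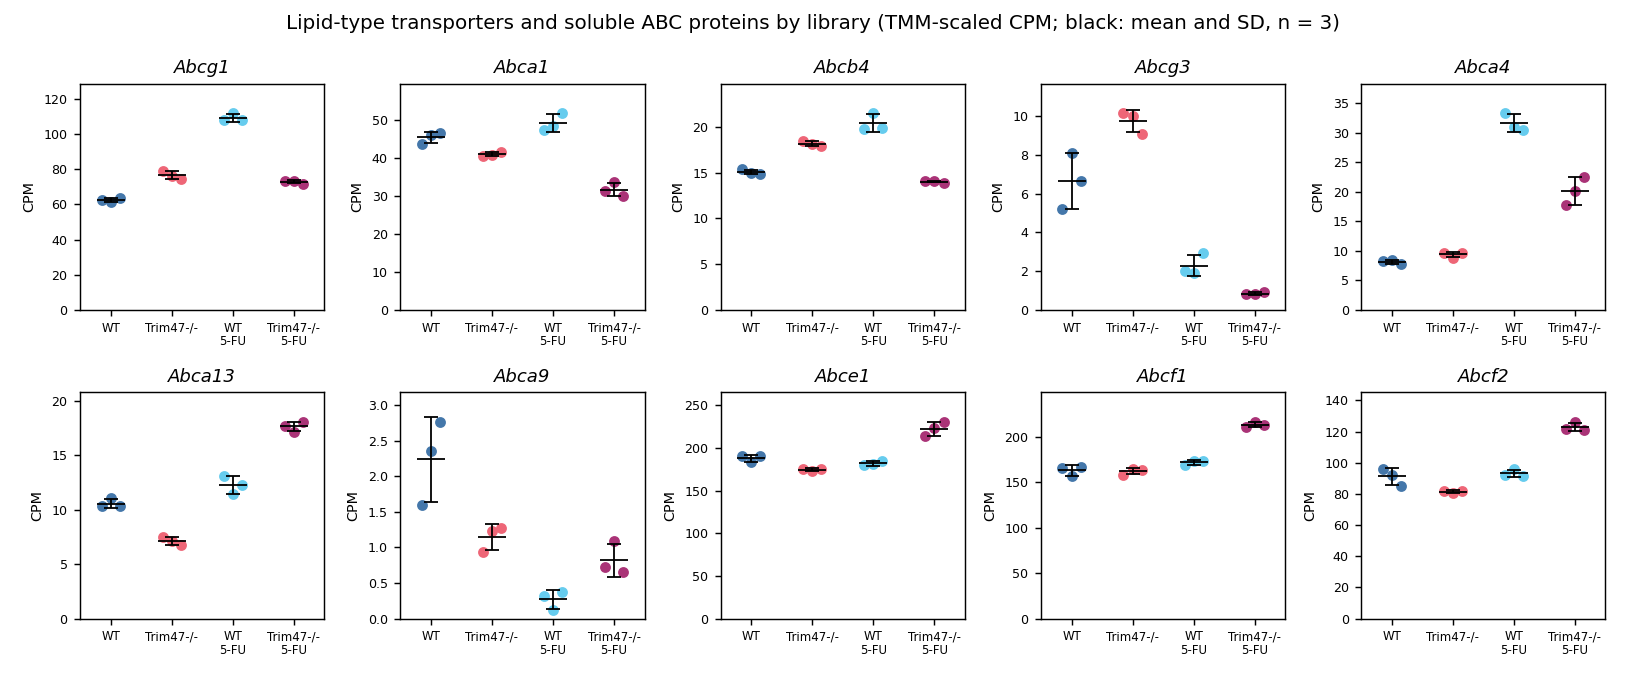
CPM per library (vertical axes from 0) of 10 members outside the drug efflux set in the 4 groups, with the mean and SD of 3 libraries in black. Abcg1 and Abca4 are highest in treated wild type, while Abca13, Abce1, Abcf1 and Abcf2 are highest in treated Trim47-/-.

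Abcb10 and Abcb6 are mitochondrial members that rose with the drug in both genotypes, and neither was called between genotypes. Abcb10, a protein of the inner membrane needed for haem synthesis in red cell precursors, had 38.04, 35.9 and 35.2 CPM in untreated wild type, 38.05, 40.3 and 42.03 in untreated Trim47-/-, 55.9, 53.1 and 52.003 in treated wild type and 52.8, 53.2 and 49.1 in treated Trim47-/-. All 6 treated libraries were above all 6 untreated ones, with drug changes of 0.56 (SE 0.053, adjusted p = 4.51e-06) and 0.37 (SE 0.052, adjusted p = 8.69e-05). The erythroid marker sum rose in the same libraries, as given above for Abca4. The interaction of Abcb10, -0.19 (adjusted p = 0.0435), was lost without replicate 2 or 3 of untreated wild type, replicate 2 or 3 of untreated Trim47-/-, replicate 1 or 2 of treated wild type, or replicate 1 or 3 of treated Trim47-/- (adjusted p = 0.0515 to 0.103), and its untreated genotype change, 0.14 (adjusted p = 0.061), was called without replicate 1 of untreated wild type, or replicate 1 of untreated Trim47-/- (adjusted p = 0.033 to 0.0469). Reads of Abcb10 may include Gm45890 on the opposite strand.

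Abcb6, a porphyrin carrier, had 10.7, 9.22 and 9.54 CPM in untreated wild type, 11.6, 9.92 and 10.6 in untreated Trim47-/-, 14.6, 12.7 and 11.7 in treated wild type and 11.5, 13.2 and 15.95 in treated Trim47-/-, and its treated and untreated Trim47-/- ranges overlapped. The drug changes, 0.41 (adjusted p = 0.0198) in wild type and 0.34 (adjusted p = 0.0337) in Trim47-/-, were lost without replicate 2 or 3 of untreated wild type, or replicate 1 of treated wild type (adjusted p = 0.0572 to 0.078) and without replicate 2 or 3 of untreated Trim47-/-, or replicate 2 or 3 of treated Trim47-/- (adjusted p = 0.0555 to 0.158) respectively. Of its 50-base stretches, 50.01% also belong to Gm29253, a locus on the same strand that overlaps it, so its count is uncertain. Abcb8, another mitochondrial member, passed no test, with drug changes of 0.19 (adjusted p = 0.0859) and 0.13 (adjusted p = 0.225); the latter was called without replicate 3 of treated Trim47-/- (adjusted p = 0.0241). The lysosomal peptide carrier Abcb9, which overlaps Gm34086 on the opposite strand, rose with the drug in wild type by 0.77 (SE 0.19, adjusted p = 0.00612). Its untreated genotype change was 0.54 (adjusted p = 0.0508), and its interaction, -0.52 (adjusted p = 0.114), was called without replicate 2 of treated Trim47-/- (adjusted p = 0.0182).

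Abcd2, Abcd3 and Abcd4 each changed between genotypes after 5-FU, Abcd2 upwards and the others downwards, and none of them was called between untreated genotypes. Abcd2, a peroxisomal carrier of fatty acids, had 12.03, 15.4 and 14.6 CPM in untreated wild type, 15.7, 15.6 and 15.7 in untreated Trim47-/-, 15.5, 16.5 and 15.2 in treated wild type and 25.1, 24.6 and 21.2 in treated Trim47-/-. Here the treated Trim47-/- libraries lay above the rest. The genotype change after 5-FU was 0.58 (SE 0.091, adjusted p = 2.08e-04) and the interaction 0.42 (SE 0.13, adjusted p = 0.0162). Abcd3, the peroxisomal membrane carrier of branched and bile acid precursors, had 39.8, 39.8 and 34.97 CPM in untreated wild type, 36.5, 39.5 and 39.7 in untreated Trim47-/-, 41.6, 40.1 and 39.98 in treated wild type and 33.7, 36.6 and 32.8 in treated Trim47-/-. The treated genotypes did not overlap. Its genotype change after 5-FU was -0.24 (adjusted p = 0.00696). The drug change in Trim47-/-, -0.17 (adjusted p = 0.0356), was lost without replicate 2 or 3 of untreated Trim47-/-, or replicate 1 or 3 of treated Trim47-/- (adjusted p = 0.0959 to 0.13), and the interaction, -0.25 (adjusted p = 0.0284), without replicate 3 of untreated wild type, replicate 2 or 3 of untreated Trim47-/-, replicate 1 of treated wild type, or replicate 1 or 3 of treated Trim47-/- (adjusted p = 0.058 to 0.0697). Abcd4, which exports cobalamin from lysosomes, had 13.3, 11.4 and 14.7 CPM in untreated wild type, 15.6, 15.6 and 15.2 in untreated Trim47-/-, 18.4, 19.1 and 19.2 in treated wild type and 13.6, 14.6 and 15.01 in treated Trim47-/-. The treated wild-type libraries stood highest. It rose with the drug in wild type (0.52, SE 0.083, adjusted p = 2.69e-04) and was not called in Trim47-/- (-0.10, SE 0.082, adjusted p = 0.312), with an interaction of -0.62 (SE 0.12, adjusted p = 7.97e-04). Its untreated genotype change, 0.23 (adjusted p = 0.0514), was called without replicate 3 of untreated wild type (adjusted p = 0.0127).

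Of the 4 genes whose proteins act on ribosomes, 3 were higher in treated Trim47-/-. Abce1 (chr8:79683462-79711740), which splits ribosomes after termination, had 189.9, 183 and 190.3 CPM in untreated wild type, 176, 172 and 175 in untreated Trim47-/-, 180.1, 181 and 185 in wild type after 5-FU and 214, 223 and 230.3 in Trim47-/- after 5-FU. Abcf1 (chr17:35956819-35969761), a partner of translation initiation, had 166, 157 and 167 CPM in untreated wild type, 158, 164 and 164 in untreated Trim47-/-, 169, 174 and 174 in treated wild type and 211, 217 and 213 in treated Trim47-/-. Abcf2 (chr5:24565345-24577467), a relative of Abcf1, had 96.1, 92.3 and 85.4 CPM in untreated wild type, 82.2, 80.3 and 82.1 in untreated Trim47-/-, 92.2, 95.95 and 91.5 in treated wild type and 121, 126 and 121 in treated Trim47-/-. In all 3 genes the treated Trim47-/- libraries lay above the other 9. Their genotype changes after 5-FU were 0.29 (SE 0.029, adjusted p = 5.86e-06), 0.31 (SE 0.029, adjusted p = 3.39e-06) and 0.40 (SE 0.041, adjusted p = 7.86e-06). The drug changes in Trim47-/- were 0.35 (adjusted p = 8.49e-07), 0.40 (adjusted p = 3.11e-07) and 0.59 (adjusted p = 2.04e-07), and those in wild type -0.05 (adjusted p = 0.21), 0.08 (adjusted p = 0.0459) and 0.03 (adjusted p = 0.563). The interactions were 0.40 (SE 0.041, adjusted p = 7.66e-06), 0.32 (SE 0.041, adjusted p = 4.46e-05) and 0.56 (SE 0.058, adjusted p = 8.34e-06).

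Without the drug, Abcf2 was lower in Trim47-/- (-0.16, adjusted p = 0.0105), as was Abce1 (-0.11, adjusted p = 0.0143), whose call was lost without replicate 1 or 3 of untreated wild type, or replicate 2 of untreated Trim47-/- (adjusted p = 0.0533 to 0.0604). The wild-type drug rise of Abcf1 was lost without replicate 1 or 2 of untreated wild type, or replicate 2 or 3 of treated wild type (adjusted p = 0.0567 to 0.193). Abcf3, the remaining relative, passed none of the 5 tests, with a genotype change of -0.08 (adjusted p = 0.316) after 5-FU that was called without replicate 3 of treated wild type (adjusted p = 0.0446).

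Across the family, 6 members were called higher in untreated and lower in treated Trim47-/- (Abca3, Abcb4, Abcc3, Abcg1, Abcg2 and Abcg3), where 11.1% of all tested genes had that pattern. Another 4 were lower untreated and higher treated (Abca13, Abca9, Abce1 and Abcf2), against 9.69% of all genes. Abca1 was the only member called in the same direction in both, lower each time. These patterns compare 2 pairs of groups with no library in common. The untreated calls of Abca1, Abca3, Abca9, Abcc3, Abce1 and Abcg3 were each lost when some single library was left out. So was the treated call of Abcc3. Over the 2 drug comparisons, which also share no library, 8 members rose in both genotypes (9.64% of all genes), 5 fell in both (10.1%), and 3 (Abca5, Abcb4 and Abcg2) rose in wild type and fell in Trim47-/- (7.61%). Of these 3, Abcg2 lost its wild-type rise in 5 of 11 alternative settings. By mean CPM, the treated wild-type group was the highest of the 4 for 12 of 34 members and the lowest for 1. Treated Trim47-/- was the highest for 10 and the lowest for 15. These ranks were not counted over all tested genes, so they cannot be read as particular to the family.

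**Figure D4:**
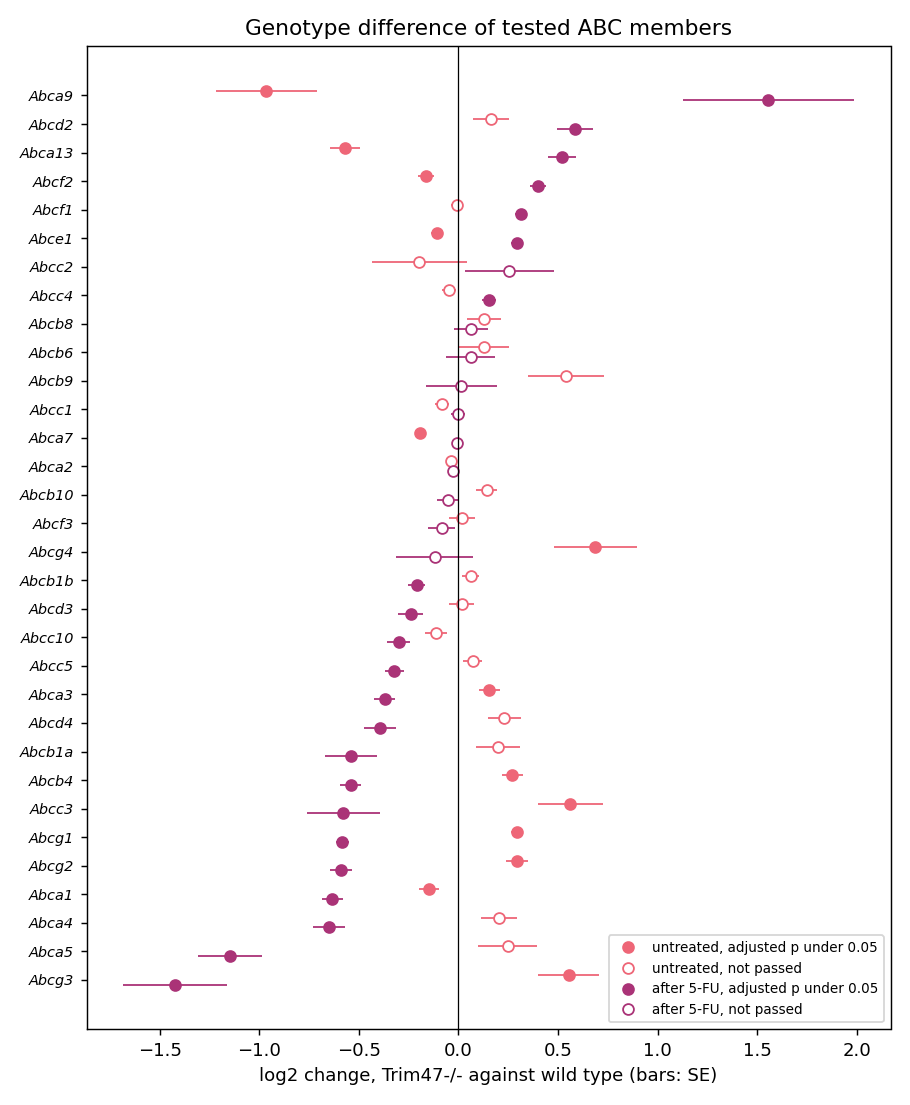
Log2 change between Trim47-/- and wild type (horizontal axis, bars of 1 SE) for tested members, untreated and after 5-FU, ordered by the change after 5-FU; filled points passed an adjusted p of 0.05. Abcg3 and Abca5 lie furthest to the left after 5-FU and Abca9 furthest to the right.

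**Figure D5:**
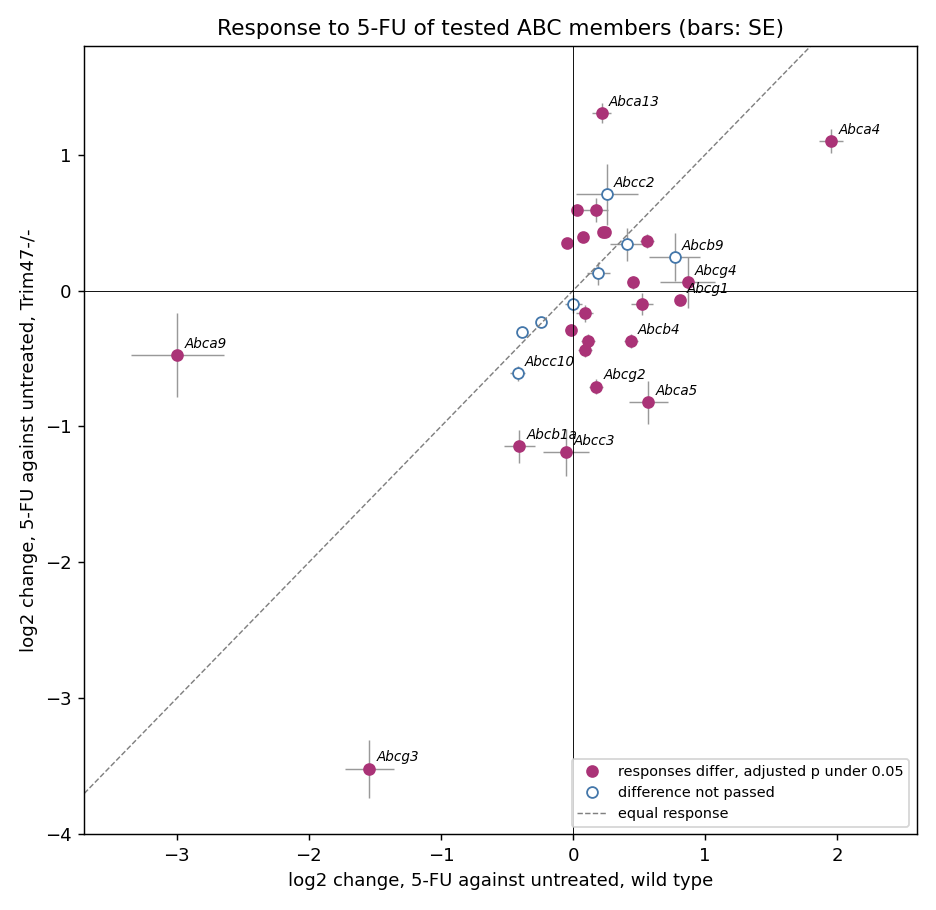
Log2 change with 5-FU in wild type (horizontal axis) and in Trim47-/- (vertical axis) for tested members, with bars of 1 SE and a dashed line of equal response; filled points are members whose responses differed. Abcc1, Abca2 and Abcc10 lie close to the line with both responses below 0, while Abcg2, Abcb4 and Abca5 lie in the area with a rise in wild type and a fall in Trim47-/-.

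Genes that work beside the members were taken from lists by role. Of 8 ribosome release and recycling genes, 4 were higher and 0 lower in treated Trim47-/- than in treated wild type, with a median log2 change of 0.23. Over all genes tested, 27.2% were higher and 27.6% lower in this comparison, so the 50% of the list that was called is below the 54.7% called overall. Etf1, which encodes a release factor, changed by 0.59 (adjusted p = 1.99e-10), and the recycling factor gene Denr by 0.48 (adjusted p = 2.3e-07). Of 13 sterol efflux regulators and acceptors, 5 were higher and 4 lower in the same comparison, 69.2% of the list. Npc1, which encodes a lysosomal cholesterol exporter, changed by -0.31 (adjusted p = 6.95e-06). Nr1h2, which encodes a liver X receptor that drives Abca1 and Abcg1, had log2 changes with 5-FU of -0.63 (adjusted p = 1.53e-07) in wild type and -0.59 (adjusted p = 1.7e-07) in Trim47-/-.

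Among 8 regulators of drug and stress response, 4 were higher and 1 lower in treated Trim47-/-, a called share of 62.5% against 54.7% of all genes. The oxidant-response factor gene Nfe2l2 changed by 0.45 (adjusted p = 2.15e-06) there and by -0.61 (adjusted p = 5.11e-07) in untreated Trim47-/-, and Hif1a, the hypoxia factor gene, by 0.88 (adjusted p = 6.74e-08) and -0.45 (adjusted p = 4.62e-05). Foxo3, a stem cell maintenance factor gene, changed by -0.39 (adjusted p = 1.49e-06) and 0.25 (adjusted p = 1.3e-04). Of 14 glutathione conjugation genes, 8 rose and 1 fell with the drug in wild type, and 7 rose and 1 fell in Trim47-/-. Of all genes, 25.2% rose and 25.4% fell with the drug in wild type, and 29.6% rose and 30.8% fell in Trim47-/-. The haem and iron-sulfur partners of the mitochondrial members rose in 10 of 17 cases with none lower in wild type, and in 8 with 1 lower in Trim47-/-. Alas2, the first enzyme of haem synthesis in red cell precursors, changed by 2.55 (adjusted p = 1.64e-06) and 1.63 (adjusted p = 1.5e-05). Between treated genotypes, 3 of 13 peroxisomal genes were higher and 3 lower, and 1 of 8 cobalamin genes was higher and 3 lower. The called shares of these lists, 46.2% and 50%, are below that over all genes. Mmut, the mitochondrial enzyme gene that needs cobalamin, changed by -0.47 (adjusted p = 1.88e-04).

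The peptide carriers Tap1 and Tap2 are ABC proteins that feed MHC class I molecules and whose symbols fall outside the family's naming. Their genotype changes after 5-FU were 0.11 (adjusted p = 0.0495) and -0.07 (adjusted p = 0.213), and Tap1 changed with the drug by 0.13 (adjusted p = 0.021) in Trim47-/- and -0.04 (adjusted p = 0.475) in wild type.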

How the data were processed

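RNA from 12 libraries in 4 groups was compared, with groups and replicate numbers taken from the sample titles. Per the labels' protocols, poly-A RNA went into paired-end stranded libraries for Illumina sequencing. The deposited table gives a whole-number count per gene, not normalised, and FPKM, per the file headers. Tools named in the submitters' processing notes, without roles, are CASAVA 1.8, HISAT2, StringTie and edgeR, with the build GRCm38. The counting tool and its strand setting are not given in these sources. The FPKM that the authors deposited equals the count over library total and 1 fixed length per gene (largest deviation 0.00098% over the 11212 genes holding 50 or more counts in every library), and served only to compare levels between genes.

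The test was edgeR's quasi-likelihood test (edgeR 4.0.16, R 4.3.3) with TMM scaling, the default filter on low counts (16319 genes kept), 1 fit over all 12 libraries with 1 mean per group, and Benjamini-Hochberg adjustment over all tested genes, with calls at an adjusted p under 0.05. DESeq2 1.42.0 was an alternative. The procedure was tested on simulated data. Log2 changes come from the fit, and CPM uses TMM-scaled library sizes. The libraries of a group were checked against counting noise: at p under 0.01, 11.7 to 13.1% of genes exceeded it, as did 0 to 3 members per group, so no libraries were merged. Intervals and p-values cover these libraries only.

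Members were all names from Abca to Abcg followed by a number. Values are given per library for the tested drug efflux genes and for other called members of at least 10 CPM on average, and up to 4 genes of a partner list were named by smallest p. Members, lists and alternatives were chosen with earlier results of these data known. All 40 identifiers had the same coordinates in GENCODE M21, which served for overlaps and for 50-base stretches shared between transcripts. Promoters came from RefSeq. Protein sequences were not used here. Some genes are not reported here.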

Additional observations from a re-analysis of the deposited data

Results flagged for a closer look

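The response to 5-FU differed between genotypes, by the interaction test at an adjusted p under 0.05, in 25 of the 34 tested members, where 54.9% of all tested genes passed the same test. Each value given is the log2 response in Trim47-/- minus that in wild type. Of the drug efflux genes, 5 had a value below 0: -0.74 for Abcb1a, -0.27 for Abcb1b, -1.14 for Abcc3, -0.39 for Abcc5 and -0.88 for Abcg2. Among the Abca genes the values below 0 were -0.49 for Abca1, -0.52 for Abca3, -0.85 for Abca4 and -1.39 for Abca5. Abcb4 had -0.81, Abcg1 -0.88, Abcg3 -1.98 and Abcg4 -0.81. Other values below 0 were -0.19 for Abcb10, -0.25 for Abcd3 and -0.62 for Abcd4. Above 0 stood 1.09 for Abca13, 0.19 for Abca7, 2.52 for Abca9, 0.20 for Abcc4 and 0.42 for Abcd2, and, among the genes that act on ribosomes, 0.40 for Abce1, 0.32 for Abcf1 and 0.56 for Abcf2. Adjusted p values ran from 2.69e-08 for Abcg1 to 0.0435 for Abcb10. In Abcb4, Abcg2 and Abca5 the drug changes themselves were called in opposite directions, up in wild type and down in Trim47-/-. The wild-type rise of Abcg2 was lost in 5 of 11 alternative settings. The libraries labelled Trim47-/- and treated with 5-FU also carried the highest neutrophil and monocyte marker sums and the lowest LT-HSC marker sum of the 4 groups, and the part of that in these values was not tested.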

How the results depend on the processing

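The counts of called members were recomputed under DESeq2 size factors, DESeq2's own test, no filter on low counts, a replicate block, only the 6 libraries compared, 2 stricter rules and the omission of each library. No called change of a member reversed direction under any of these. At an adjusted p under 0.01, 3 members were higher and 2 lower in untreated Trim47-/-, against 7 and 6 at 0.05. Asking also for a 2-fold change left 0 and 0 there. It left 1 higher and 2 lower between treated genotypes, 1 and 2 for the drug in wild type, 2 and 3 for the drug in Trim47-/-, and 2 and 3 for the interaction, which follows from the small size of most changes. Leaving out 1 library at a time gave 4 to 7 higher and 3 to 5 lower untreated, 7 to 7 higher and 15 to 18 lower after 5-FU, 13 to 14 raised and 5 to 6 lowered by the drug in wild type, 9 to 12 raised and 13 to 14 lowered in Trim47-/-, and 8 to 8 above and 14 to 18 below 0 in the interaction. The lowest untreated counts came without replicate 1 (4 higher) and without replicate 3 (3 lower) of untreated wild type. Of the called members, 6 of 13 were kept under every alternative in the untreated genotype comparison, 21 of 23 after 5-FU, 16 of 22 for the drug in wild type, 22 of 26 in Trim47-/- and 22 of 25 in the interaction. DESeq2's own test ended several calls of the members named here, listed with their adjusted p values in brackets. In the untreated genotype comparison these were Abca1 (0.0558), Abca3 (0.084) and Abcg4 (0.0577). For the drug in wild type they were Abca13 (0.144), Abcb1a (0.0775), Abcf1 (0.174) and Abcg2 (0.0612). For the drug in Trim47-/- they were Abcc2 (0.0662), which had no other call, and Abcd3 (0.0679). In the interaction they were Abcb10 (0.123), Abcd3 (0.0602) and Abcg4 (0.0732).

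Replicate numbers are shared across groups, but same-numbered libraries did not deviate together: their correlations ran from -0.109 to 0.0932, and 4 of 12 libraries correlated best with their own number. With the replicate number as a block, 6 members were higher and 6 lower in untreated Trim47-/-, 7 and 16 after 5-FU, 15 and 6 with the drug in wild type, 12 and 14 in Trim47-/-, and 8 and 16 in the interaction. Depth limits the members near 1 CPM, such as Abcc2, Abca9 and, in treated Trim47-/-, Abcg3. For these a library held few reads, and the 6 members that failed the filter were not tested.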
